A study of Mus musculus with 4 samples.

Results

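The gasdermin family was followed through 4 single-cell RNA libraries of sorted mouse intestinal epithelium. The members were 5 genes taken by symbol, Gsdmc, Gsdmc2, Gsdmc3, Gsdmc4 and Gsdmd, of the 28694 genes in the deposited tables, and all 5 were present in each of the 4 libraries' tables. Libraries DC 1 and DC 2 came from the distal colon, and Si8 1 and Si8 2 from section 8 of the small intestine. Every library was made from RedMUC298trTg mice aged 6 to 8 weeks, a strain whose transgene labels goblet cells with mCherry, so both tissues carried the transgene and neither had a group without it. Cells were sorted on mCherry, but the labels state neither the gate behind a library nor its number of mice. The questions were which cells hold the gasdermin transcripts, whether the regions differ, and how each gene tracks with Muc3, Muc2 and Mxd1. Muc3 encodes a transmembrane mucin of the enterocyte brush border, Muc2 the gel-forming mucin secreted by goblet cells, and Mxd1 a transcription factor of the MYC network found in differentiated cells.

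Gasdermins are cytosolic proteins kept inactive by their own C-terminal domain. A protease cuts the linker between both domains, and the freed N-terminal domain inserts into membranes and forms pores. Gsdmd is cut by the inflammatory caspases, caspase-1 and caspase-11 (gene Casp4), and its pores release mature cytokines such as IL-18 and can end in lytic death, called pyroptosis. The Gsdmc paralogs lie in 1 cluster in the mouse genome and are known in the gut for their induction in epithelium by type 2 cytokines during worm infection.

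Gsdmc (ENSMUSG00000079025, chromosome 15, 63775968 to 63808759), Gsdmc2 (ENSMUSG00000056293, 63824346 to 63845177), Gsdmc3 (ENSMUSG00000055827, 63857724 to 63878558) and Gsdmc4 (ENSMUSG00000055748, 63891264 to 63912297) stand in tandem on the minus strand, within 136.33 kb (GRCm38, GENCODE M21). Gsdmd (ENSMUSG00000022575, chromosome 15, 75862327 to 75867408) lies 11.95 Mb away on the plus strand. The coding sequences of Gsdmc2 and Gsdmc3 were 97.1% identical, and each was 93.8% identical to that of Gsdmc4. Gsdmc was 87.0% to 88.1% identical to the other paralogs, and Gsdmd 62.2% to 63.2% identical to all 4. Counting was from the transcript's 3' end, so likeness there decides how well UMIs can be told apart. The last 60 coding bases are shown 5′ to 3′ because they show how close the 3 abundant paralogs are, with capitals at the 5 positions where they differ among themselves.
Gsdmc2: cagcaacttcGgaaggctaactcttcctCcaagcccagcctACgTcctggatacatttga
Gsdmc3: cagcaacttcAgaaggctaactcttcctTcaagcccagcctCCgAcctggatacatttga
Gsdmc4: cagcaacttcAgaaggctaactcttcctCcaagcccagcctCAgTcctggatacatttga
Of the 100-base windows in the last 500 transcript bases, 14.0% of those of Gsdmc2 and 14.2% of those of Gsdmc3 also occurred in another paralog, and 6.23% of those of Gsdmc. None did for Gsdmc4 or Gsdmd. The split of UMIs between Gsdmc2 and Gsdmc3 is therefore uncertain, and the paralogs were also taken as 1 sum.

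Of the 5 members only Gsdmc3 had an entry in the RefSeq promoter table (GRCm38.p6). Its 250 bases before the start, chr15:63878559-63878808 on the minus strand, are shown because paralog UMIs met in the same cells, counted over all classes. Capitals mark the TATA-type letters TATATAA, 29 bases before the start.
Gsdmc3 promoter: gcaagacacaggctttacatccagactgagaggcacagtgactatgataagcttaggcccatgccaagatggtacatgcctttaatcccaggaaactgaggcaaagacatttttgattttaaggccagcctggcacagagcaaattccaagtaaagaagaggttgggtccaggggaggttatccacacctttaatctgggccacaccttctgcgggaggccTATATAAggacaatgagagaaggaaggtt
Searched on both strands, TATATAA occurred in 3.04% of 32851 promoters of the same table.

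After filtering, the libraries held 1831, 4724, 1491 and 2197 cells in the order DC 1, DC 2, Si8 1, Si8 2, which is the order of every set of 4 values here. They held 26232737 to 63045287 UMIs, with medians of 12288 to 21037 UMIs per cell. Goblet-like cells made up 60.8%, 50.1%, 76.2% and 52.0% of them, absorptive-like cells 10.4%, 19.3%, 7.65% and 13.2%, and cycling-like cells 20.9%, 21.4%, 11.0% and 22.9%, so no library was purely of the labelled goblet type. Clusters were named from marker lists that held none of the members. In the absorptive-like cluster, the 31 colonic absorptive markers summed to 10761, 11089, 11694 and 9566 CPM (UMIs scaled to the same total in every sum), while the 30 small intestinal absorptive markers summed to 272, 303, 73796 and 56660 CPM, with 19 and 28 to 29 of them at 1 UMI or more in DC and Si8. In goblet-like cells the colonic list summed to 4088, 3757, 11471 and 11230 CPM, so in Si8 it did not set these classes apart. The small intestinal list summed there to 106, 109, 13576 and 8579 CPM, below its absorptive-like sum in every library. The 37 goblet markers summed to 55233, 42501, 134114 and 88067 CPM in absorptive-like and to 136521, 128477, 295091 and 296229 CPM in goblet-like cells, so goblet RNA was present in both. The library pairs shared 1 to 16 cell barcodes. The labels do not tie the libraries to separate animals, so p-values measure only the spread between these samples, which may be technical.

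The Gsdmc paralogs and Gsdmd were spread differently over the cell classes. In the colon, absorptive-like cells held 67.0% and 68.2% of all paralog UMIs in DC 1 and DC 2, although they held 10.4% and 19.5% of all UMIs. In Si8 1 and Si8 2 they held 46.5% and 52.3% of the paralog UMIs, against 8.52% and 13.8% of all UMIs. Cycling-like cells held most of the rest, 18.2%, 18.9%, 35.5% and 33.5%, and goblet-like cells 5.12%, 5.51%, 6.23% and 3.11%, far below their 49.5%, 39.5%, 66.3% and 40.7% of all UMIs. Goblet-like cells held 54.6%, 42.0%, 77.2% and 57.5% of the Gsdmd UMIs and absorptive-like cells 14.5%, 28.4%, 10.5% and 20.2%. Both were above the share of all UMIs that the class held in each library. Paralog transcripts were also concentrated in few cells: the tenth of cells with the most held 77.7%, 56.6%, 93.0% and 64.7% of them. The same share, ranked by each gene's own UMIs, was 42.3%, 44.1%, 37.2% and 37.9% for Gsdmd and 54.4%, 39.0%, 55.9% and 47.1% for Muc3. Cells were not thinned here, and the share also rises where UMIs are few, as with the 1012 paralog UMIs of Si8 1. The highest single cell had 36, 60, 19 and 27 Gsdmc4 UMIs, while the highest for Gsdmd had 5, 8, 9 and 7.

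Absorptive-like cells of the colon held 3 of the 4 paralogs at several times the small intestinal level. Gsdmc4, the most abundant, stood at 614 CPM in DC 1 and 650 in DC 2, and at 128 in Si8 1 and 188 in Si8 2. Gsdmc2 stood at 218 and 210 against 58.5 and 86.5 CPM, and Gsdmc3 at 133 and 155 against 29.9 and 50.5 CPM. For all 3 genes both colon libraries lay above both small intestinal ones. The share of all tested genes whose libraries separate between the tissues was not counted, here or in the other cell sets. The log2 fold changes, DC minus Si8, were 1.75 ± 0.20 (SE, n = 2 libraries per tissue) for Gsdmc4, a 3.37-fold difference with an edgeR adjusted p of 9.86e-05. They were 1.30 ± 0.19 for Gsdmc2 (edgeR adjusted p = 4.53e-04) and 1.56 ± 0.22 for Gsdmc3 (3.78e-04). Gsdmd stood at 53.7, 59.4, 58.5 and 49.3 CPM, with overlapping libraries and a log2 difference of -0.14 ± 0.17 (edgeR adjusted p = 0.573). Scaling by library totals alone turned the sign for Gsdmd, to 0.10. Thus 3 of the 4 tested members passed the threshold, where 33.1% of 10563 genes did. Gsdmc was too low to test, with 4, 5, 0 and 0 UMIs. Muc3 stood at 2590, 2588, 545 and 497 CPM in the same cells, so the transmembrane mucin was also higher in the colon (log2 2.07, edgeR adjusted p = 3.19e-05). Alongside, 13 of the 25 dissociation stress genes were higher and 1 lower in colonic absorptive-like cells, with a median log2 difference of 0.66 against 0.03 over all tested genes. The part of these genes, and of the small intestinal marker gap above, in the paralog difference was not tested.

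**Figure D1:**
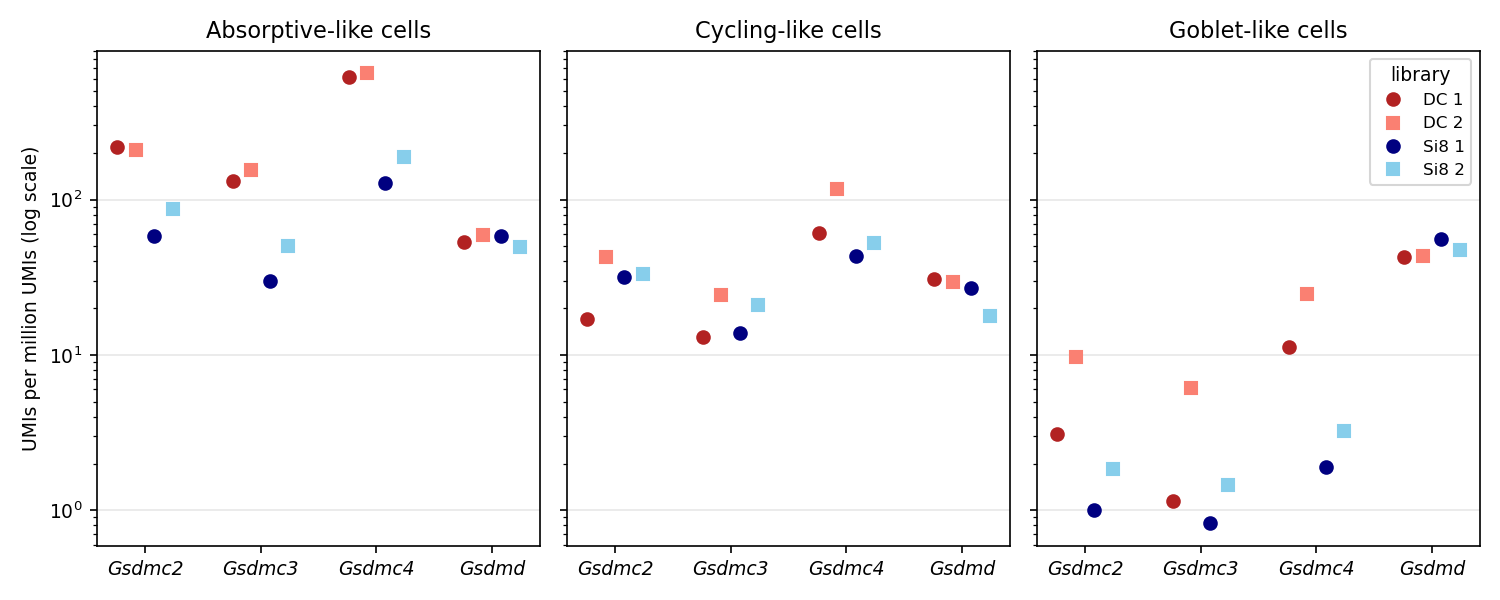
Level of Gsdmc2, Gsdmc3, Gsdmc4 and Gsdmd in CPM (log axis) in absorptive-like, cycling-like and goblet-like cells, 1 point per library. Gsdmc4 runs from 614 and 650 CPM in colonic absorptive-like cells to 1.89 and 3.24 CPM in goblet-like cells of Si8, while Gsdmd stays between 17.9 and 59.4 CPM in all 3 classes.

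The same contrast showed in the share of absorptive-like cells with a UMI once every cell was thinned to 5000 UMIs. Gsdmc4 was seen in 84.5% (exact 95% Clopper-Pearson interval 78.2% to 89.5%) and 89.0% (86.8% to 91.0%) of colonic cells, against 28.0% (19.5% to 37.9%) and 50.2% (44.3% to 56.1%) in Si8. Gsdmd was seen in 24.7% (18.5% to 31.8%), 26.7% (23.8% to 29.8%), 28.0% (19.5% to 37.9%) and 21.6% (17.1% to 26.8%), and these intervals overlapped. Intervals cover counting error only, and with 2 against 2 libraries an exact two-sided permutation test cannot go below p = 0.333. Unthinned, the shares were 88.0%, 95.5%, 46.5% and 86.3% for Gsdmc4 and 50.8%, 49.8%, 66.7% and 64.6% for Gsdmd, at median depths of 14703, 13535, 18827 and 24549 UMIs per absorptive-like cell.

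Goblet-like cells held Gsdmd at nearly the absorptive level and the paralogs at a small part of it. Gsdmd stood at 42.6, 43.6, 55.4 and 47.6 CPM, that is 79.4%, 73.3%, 94.7% and 96.5% of its absorptive-like level in the same library. Gsdmc4 stood at 11.3, 24.7, 1.89 and 3.24 CPM, or 1.85%, 3.80%, 1.47% and 1.73% of it. In the colon Muc3 and Dmbt1, a secreted scavenger glycoprotein, stood at similar parts of their absorptive-like level: Muc3 at 0.935% and 3.83%, and Dmbt1 at 1.15% and 3.56%, in DC 1 and DC 2. In Si8 Muc3 stood at 16.6% and 11.9%, above the paralogs, while Dmbt1 stood at 1.63% and 2.70%, near them. After thinning, 5.66% (interval 4.31% to 7.27%), 9.73% (8.53% to 11.0%), 1.52% (0.855% to 2.50%) and 2.45% (1.64% to 3.52%) of goblet-like cells had a Gsdmc4 UMI, at median depths of 12189, 10493, 16712 and 18701.5 UMIs. At these levels RNA shed by other cells cannot be told apart from expression, so the log2 differences between the tissues, 2.28 ± 0.43 for Gsdmc4 (edgeR adjusted p = 0.00635), 1.66 ± 0.58 for Gsdmc2 (0.0572) and 1.19 ± 0.72 for Gsdmc3 (0.230), describe low levels only. Without DC 2 the Gsdmc3 difference turned to -0.54. Gsdmd was lower in colonic goblet-like cells by TMM scaling, with a log2 difference of -0.79 ± 0.11 (edgeR adjusted p = 0.00229) and both DC libraries below both Si8 ones. With library totals alone it was -0.26 (0.0932), a scaling that moved the median over all genes from 0.05 to 0.58. In this class 2 of the 4 tested members passed, 1 in each direction, where 42.5% of 11881 genes did.

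Taken as 1 class, cycling-like cells lay between both. Gsdmc4 stood there at 60.8, 117, 43.2 and 52.2 CPM, Gsdmc2 at 16.9, 42.8, 31.6 and 33.4, and Gsdmc3 at 13.1, 24.3, 13.8 and 21.1 CPM. DC 1 fell below the Si8 libraries for Gsdmc2 and Gsdmc3, so the tissue order of the absorptive-like cells held there for Gsdmc4 alone. The cycling-like clusters were unlike. Cluster 3 held the paralog sum at 160, 239, 121 and 129 CPM, and cluster 9 at 8.36, 29.5, 1.16 and 10.5 CPM. Cluster 10 held it at 7.31, 33.1 and 19.0 CPM in DC 1, DC 2 and Si8 2. An unnamed cluster of 818 cells held Gsdmc4 at 101, 126, 41.7 and 48.6 CPM and Gsdmd at 26.6, 28.5, 27.3 and 21.3 CPM. In cycling-like cells Gsdmd was at 30.7, 29.7, 27.1 and 17.9 CPM, below its level in both mature classes in every library. The 39 Paneth-like cells of Si8 2 held 5.28 CPM of Gsdmd and 2.88 CPM of Gsdmc4.

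Over all kept cells, where fewer cells of a type and less RNA per cell cannot be told apart, Gsdmc4 was the 1 member of 4 tested that passed, where 24.9% of 13084 genes did. It stood at 97.8, 186, 21.2 and 46.5 CPM (log2 1.67 ± 0.44, edgeR adjusted p = 0.0422). Without DC 2 it was 1.12 (edgeR adjusted p = 0.155). With the paralogs counted as 1 gene the difference was 1.42 (edgeR adjusted p = 0.0671). Gsdmc2 stood at 32.3, 62.0, 11.9 and 24.5 CPM (0.97 ± 0.42, edgeR adjusted p = 0.150) and Gsdmc3 at 20.2, 42.9, 6.55 and 14.7 CPM (1.17 ± 0.47, 0.133). Neither gene passed, though the libraries of each did not overlap between the tissues. The share of all tested genes without overlap was not counted. Gsdmd stood at 38.6, 40.9, 47.6 and 33.7 CPM with overlapping libraries (-0.45 ± 0.22, edgeR adjusted p = 0.195). Gsdmc had 6, 8, 0 and 1 UMIs, 14 in both DC libraries and 1 in both Si8 libraries, a depth-scaled ratio of 12.2 with an exact 95% counting interval of 1.86 to 516. Absorptive-like cells were 19.3% of DC 2 against 10.4% of DC 1, the colon library with the lower paralog levels.

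The other gasdermin genes had their own regional pattern. Gsdme, listed as Dfna5 (chromosome 6, 50188888 to 50263862), whose protein is cut by caspase-3, stood at 8.88, 9.10, 106 and 96.0 CPM over all kept cells, lower in DC by 3.90 on the log2 scale (-3.90 ± 0.17, edgeR adjusted p = 2.43e-04). It was also lower in DC within both classes tested, at 5.48, 6.90, 89.3 and 90.5 CPM in absorptive-like cells (-4.02, 3.67e-07) and 9.71, 9.04, 127 and 148 CPM in goblet-like cells (-4.41, edgeR adjusted p = 1.52e-05). Gsdma2 (chromosome 11, 98646759 to 98657964) had 0, 1, 56 and 130 UMIs, of which goblet-like cells held 0, 0, 44 and 80. Gsdma had 1, 10, 19 and 9 UMIs, Dfnb59 0, 0, 1 and 2, and Gsdma3 none.

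Within the paralog sum, Gsdmc4 took the largest part in every library and a larger one in the colon. Over all kept cells it was 65.0%, 63.9%, 53.5% and 54.2% of the paralog UMIs, a mean of 64.4% ± 0.79 in DC and 53.9% ± 0.56 in Si8 (SD, n = 2, exact permutation p = 0.333, the smallest possible). Gsdmc2 made up 21.5%, 21.3%, 30.0% and 28.6%, and Gsdmc3 13.4%, 14.8%, 16.5% and 17.2%. In absorptive-like cells alone the Gsdmc4 part was 63.6%, 64.0%, 59.2% and 57.8%. Counted over all classes together, the paralogs were found in the same cells more often than in others. Of the 322, 1471, 68 and 319 cells with a thinned Gsdmc4 UMI, 38.5%, 42.3%, 25.0% and 25.7% also had Gsdmc2, against 2.83%, 5.77%, 2.41% and 5.06% of cells without Gsdmc4. Gsdmd was in 19.6%, 21.4%, 23.5% and 15.7% of those cells, and in 16.5%, 17.2%, 22.3% and 17.0% of cells without Gsdmc4, a gap of both signs.

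Cells with Muc3 held far more paralog RNA than cells without, and the gap was wider in the colon. Cells of 5000 or more UMIs (1699, 4541, 1315 and 2197) were thinned to 5000 and split by whether a Muc3 UMI was left. Gsdmc4 stood at 262 CPM in Muc3-positive against 12.5 CPM in Muc3-negative cells of DC 1, and at 279 against 19.5 in DC 2. In Si8 1 it stood at 28.1 against 7.88 CPM and in Si8 2 at 79.1 against 21.3 CPM. The Muc3-positive cells were thus the higher in all 4 libraries. The log2 difference was 3.91 ± 0.14 in DC (edgeR adjusted p = 6.55e-08) and 1.79 ± 0.17 in Si8 (4.65e-05), and the gap between the tissues was 2.12 ± 0.23 (edgeR adjusted p = 7.56e-04). Gsdmc2 (3.76 ± 0.22 and 1.63 ± 0.28) and Gsdmc3 (4.11 ± 0.26 and 2.03 ± 0.33) behaved alike (edgeR adjusted p from 7.70e-07 to 0.00234), with gaps of 2.13 (edgeR adjusted p = 0.0139) and 2.08 (0.0433). Gsdmd did not follow Muc3: it stood at 37.4 against 38.2 CPM in DC 1, 44.1 against 40.0 in DC 2, 69.6 against 47.5 in Si8 1 and 38.1 against 37.9 in Si8 2 (-0.07 in DC, edgeR adjusted p = 0.805, and 0.24 in Si8, 0.382). The Si8 value was -0.14 without Si8 1 and 0.65 without Si8 2 (adjusted p = 8.76e-04), so it rested on which library was used. In each tissue 3 of 4 tested members passed, where 20.8% of 11157 genes did in DC and 13.8% in Si8, and 3 of 4 passed for the tissue gap, where 2.32% did.

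The level climbed with the number of Muc3 UMIs. In cells with 0, 1, 2 to 4, 5 to 9 and 10 or more thinned Muc3 UMIs, the paralog sum was 16.7, 17.0, 145, 280 and 877 CPM in DC 1, with 32.3, 27.5, 126, 370 and 889 CPM in DC 2. In the small intestine, which had fewer Muc3 UMIs, the first 4 steps gave 15.3, 36.3, 62.9 and 124 CPM in Si8 1 and 37.6, 103, 179 and 232 CPM in Si8 2. A single Muc3 UMI thus went with no rise in the colon and with a rise in Si8. Gsdmd stayed between 26.4 and 61.6 CPM over the colon's steps, with its highest value in the last one, 54.0 and 61.6 CPM. Over the first 4 steps it stood at 47.5, 65.0, 70.1 and 94.1 CPM in Si8 1 and at 37.9, 34.6, 29.8 and 120 CPM in Si8 2, so only the step with the most Muc3 was high in both. That step, of 5 to 9 UMIs, held only 34 cells in Si8 1 and 50 in Si8 2.

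**Figure D2:**
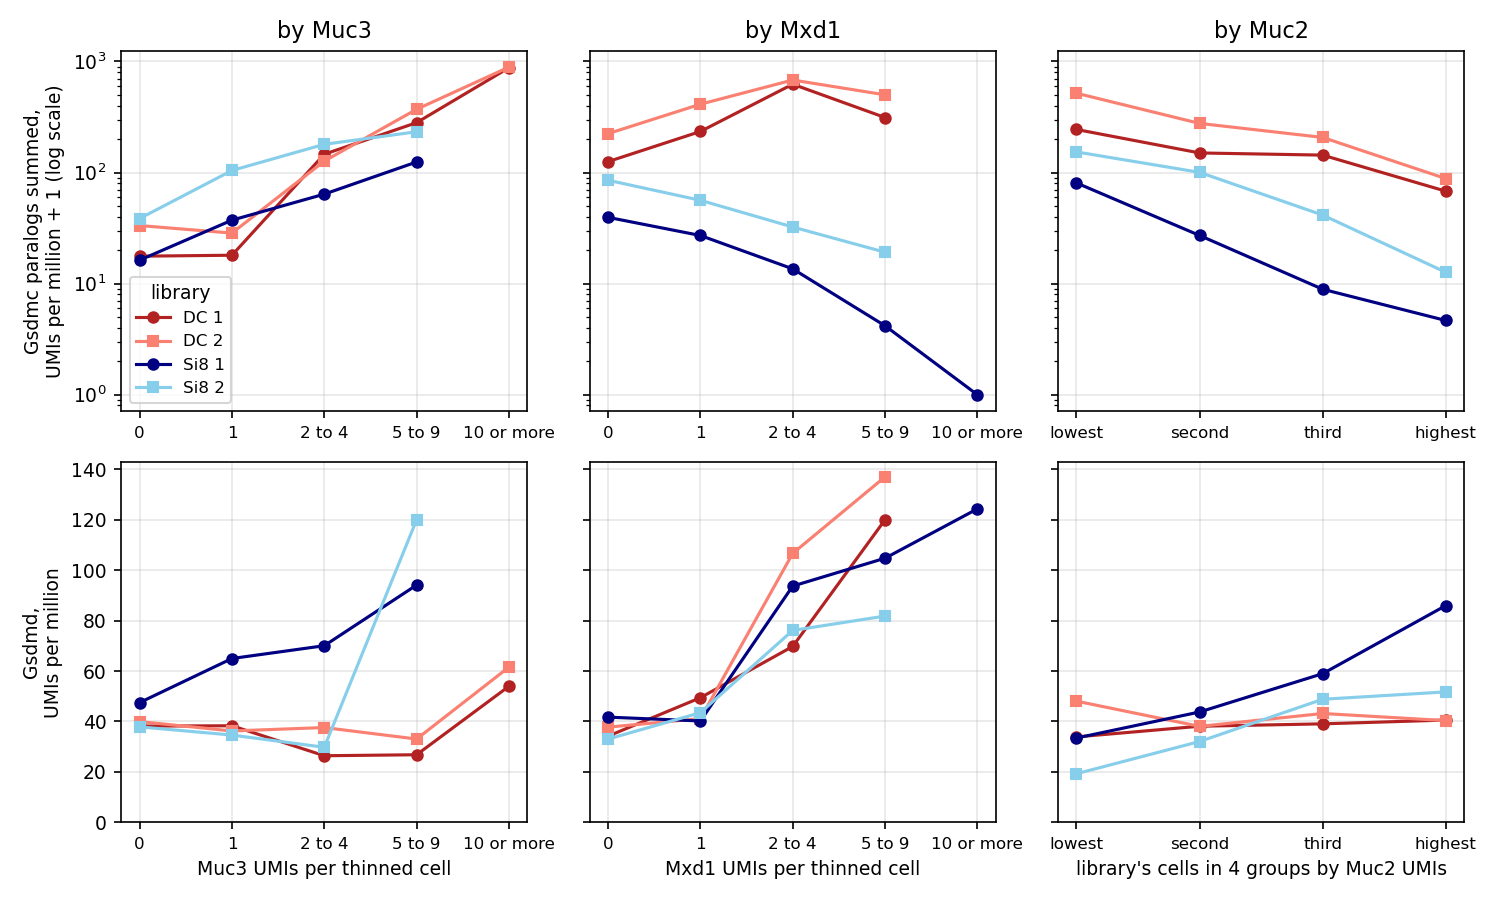
Paralog sum (CPM plus 1, log axis) and Gsdmd (CPM, linear axis) in cells grouped by thinned Muc3 UMIs, by thinned Mxd1 UMIs and by Muc2 count (4 groups from lowest to highest), 1 line per library. The paralog sum climbs with Muc3 in all 4 libraries, to 877 and 889 CPM in the colon, and falls with Mxd1 in Si8 alone, to 0 and 18.2 CPM, while Gsdmd is higher at the last Mxd1 step than at the first in all 4.

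Class makeup moved with this split, so the same split was made within classes. In goblet-like cells alone Gsdmc4 differed by 0.55 in DC (edgeR adjusted p = 1) and 0.27 in Si8 (0.804), where 0.109% and 16.8% of genes passed and 3.06% for the gap, while Gsdmd differed by 0.80 in Si8 (edgeR adjusted p = 0.00183). A thinned Muc3 UMI was left in 100%, 100%, 81.0% and 82.5% of absorptive-like cells, so these were split at the library's median Muc3 count. Muc3 stood at 2590, 2588, 545 and 497 CPM in them, so the cuts lay at unlike Muc3 levels in the tissues. Above against at or below the median, Gsdmc4 stood at 905 against 436 CPM in DC 1 and 786 against 529 in DC 2, but at 72.7 against 129 in Si8 1 and 167 against 178 in Si8 2. The colonic difference of 0.75 passed (edgeR adjusted p = 5.19e-10), the Si8 one of -0.27 did not (0.634), and the gap between them was 1.01 (edgeR adjusted p = 0.00185). Gsdmd went with Muc3 within absorptive-like cells of both tissues: 83.3 against 35.6, 87.9 against 46.8, 90.9 against 46.4 and 73.3 against 38.6 CPM. Its log2 differences were 0.97 in DC (edgeR adjusted p = 1.20e-05) and 0.91 in Si8 (0.0466), a gap of 0.05 (adjusted p = 1). In this split 12.5% of genes passed in DC, 4.06% in Si8 and 0.981% for the gap.

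Gsdmd tracked with Mxd1 in both tissues, while Gsdmc2 and Gsdmc4 tracked with it in opposite directions. Split by a thinned Mxd1 UMI, Gsdmd stood at 59.7 CPM in Mxd1-positive against 34.2 in Mxd1-negative cells of DC 1, 62.3 against 37.8 in DC 2, 77.6 against 41.7 in Si8 1 and 55.5 against 33.0 in Si8 2. It was the higher with Mxd1 in all 4 libraries, by 0.80 ± 0.14 in DC (edgeR adjusted p = 2.14e-04) and 1.15 ± 0.14 in Si8 (8.81e-07). The DC call was lost without DC 1 (0.75, adjusted p = 0.0653) and without DC 2 (0.86, 0.125). The gap between the tissues was -0.35 (edgeR adjusted p = 0.376). Gsdmc4 stood at 205 against 79.8 CPM in DC 1 and 325 against 139 in DC 2, but at 7.13 against 20.2 in Si8 1 and 24.8 against 48.3 in Si8 2. Its log2 difference was 1.33 ± 0.13 in DC (edgeR adjusted p = 4.07e-08) and -0.81 ± 0.20 in Si8 (0.00293), a gap of 2.14 ± 0.24 (edgeR adjusted p = 2.44e-06). The Si8 call was lost with cells thinned to 2000 UMIs (-0.74, adjusted p = 0.162). Gsdmc2 had the same signs, 1.11 ± 0.15 and -0.98 ± 0.27, and a gap of 2.09 (edgeR adjusted p = 1.25e-04). Gsdmc3 passed in DC alone, 0.85 ± 0.16 (edgeR adjusted p = 5.19e-04) against -0.02 in Si8 (0.978), with a gap of 0.87 that did not pass (0.134). All 4 tested members passed in DC, where 9.9% of 10965 genes did. In Si8 3 of 4 passed where 29.5% did, and 2 of 4 for the gap where 3.3% did. Gsdmc4 and Mxd1 are recalled as genes that the study itself reported from these samples, so their pattern here is no independent evidence.

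Over 0, 1, 2 to 4 and 5 to 9 thinned Mxd1 UMIs, Gsdmd stood at 34.2, 49.4, 69.8 and 120 CPM in DC 1, with 37.8, 41.1, 107 and 137 CPM in DC 2. The same steps gave 41.7, 40.2, 93.7 and 105 CPM in Si8 1 and 33.0, 43.5, 76.1 and 81.8 CPM in Si8 2, where the last step held 22 cells. The paralog sum over these steps was 38.5, 26.1, 12.6 and 3.17 CPM in Si8 1 and 84.2, 55.3, 31.3 and 18.2 CPM in Si8 2, a fall at each step. In the colon it was 124, 233, 623 and 312 CPM in DC 1, with 223, 412, 680 and 500 CPM in DC 2, with the highest value at 2 to 4 UMIs. The steps of 2 to 4 and 5 to 9 UMIs held only 43 and 25 cells in DC 1, and 195 and 54 in DC 2.

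Class makeup moved with Mxd1 differently in the tissues. Among cells with both Muc3 and Mxd1, absorptive-like cells were 61.9% and 60.1% in DC 1 and DC 2, with a paralog sum of 748 and 710 CPM. In Si8 1 and Si8 2 they were 12.0% and 29.2%, with goblet-like cells at 82.8% and 59.7%, and the paralog sum was 20.6 and 72.6 CPM. Among cells with Muc3 and no Mxd1, absorptive-like cells were 23.5%, 25.4%, 24.7% and 28.9%, and the paralog sum was 339, 361, 106 and 165 CPM. Gsdmd was higher in the cells with both, at 74.2, 70.7, 83.8 and 65.5 CPM, than in those with Muc3 alone, at 30.0, 37.0, 47.3 and 27.9 CPM, in every library.

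Within absorptive-like cells the opposite directions remained in part. Gsdmc4 stood at 783 CPM with Mxd1 against 598 without in DC 1, and at 725 against 606 in DC 2 (0.34, edgeR adjusted p = 0.140). In Si8 it was lower with Mxd1, at 25.6 against 154 CPM in Si8 1 and 94.7 against 201 in Si8 2 (-1.35, edgeR adjusted p = 0.00108), and the gap between the tissues was 1.68 (6.30e-04). The Mxd1-positive sides held only 39 cells with 195000 UMIs of all genes in Si8 1 and 76 cells with 380000 in Si8 2. The lower Si8 values thus stand on few Gsdmc4 UMIs. Gsdmd was higher with Mxd1 in all 4, at 93.3 against 40.4, 94.1 against 49.0, 118 against 32.8 and 89.5 against 40.0 CPM (1.02 in DC, edgeR adjusted p = 1.03e-04, and 1.42 in Si8, 0.00141). In this split 12.5% of genes passed in DC, 5.4% in Si8 and 0.899% for the gap. In goblet-like cells alone, Gsdmd stood at 51.6 against 37.3, 43.1 against 39.0, 77.6 against 47.9 and 54.1 against 45.0 CPM, higher with Mxd1 in each library. The difference passed in Si8 (0.77, edgeR adjusted p = 0.00123, where 22.2% of genes passed) and not in DC (0.33, 0.619, where 1.82% did), with 1.09% of genes past the threshold for the gap. For Gsdmc4 the opposite directions were not seen in goblet-like cells: its difference had the same sign in both tissues, and its gap did not pass.

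**Figure D3:**
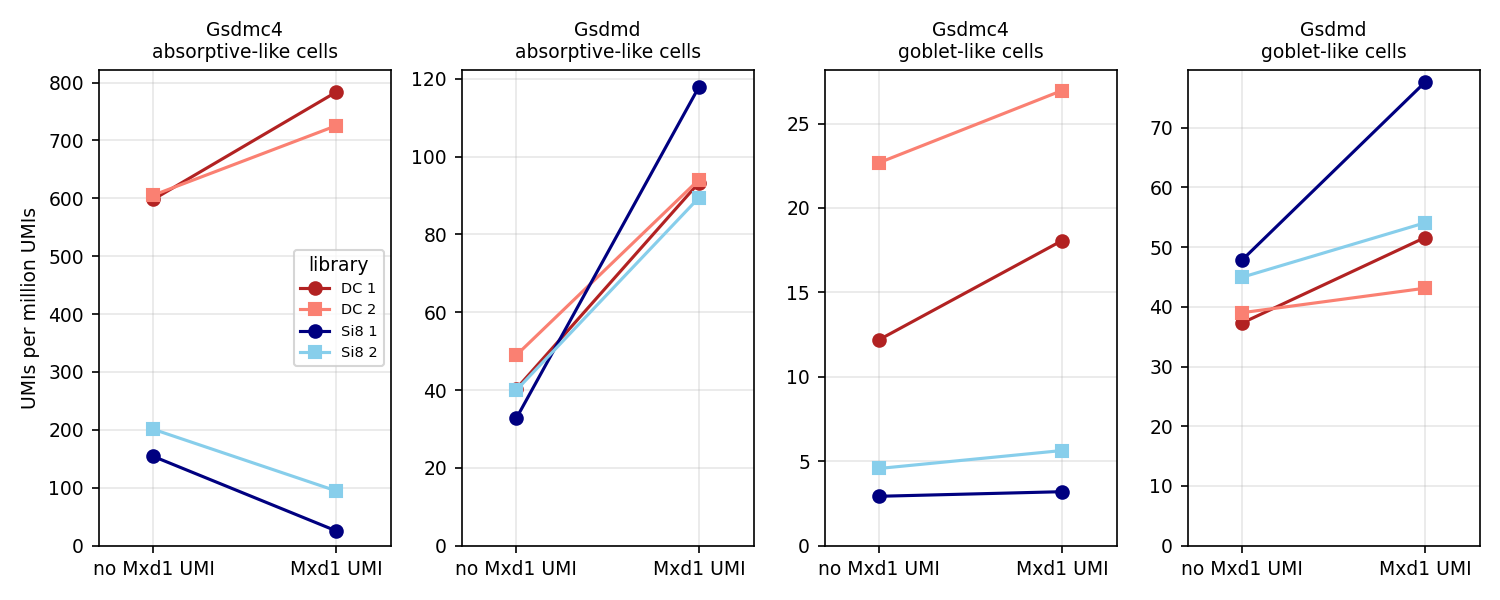
Gsdmc4 and Gsdmd (CPM) in absorptive-like and goblet-like cells without and with a thinned Mxd1 UMI, 1 line per library. Gsdmd is higher with Mxd1 in every library and class, while absorptive-like Gsdmc4 falls from 154 to 25.6 CPM and from 201 to 94.7 CPM in the Si8 libraries alone. The Mxd1-positive absorptive-like sides of Si8 1 and Si8 2 held 39 and 76 cells.

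With Muc2 the paralogs were lower in both tissues, while Gsdmd was higher in the small intestine. Between cells above the library's median thinned Muc2 count and those at or below it, Gsdmc4 stood at 69.9 against 125 CPM in DC 1, 91.7 against 253 in DC 2, 4.31 against 25.9 in Si8 1 and 14.7 against 70.9 in Si8 2. It was the lower with high Muc2 in all 4 libraries, by -1.0 ± 0.17 in DC (edgeR adjusted p = 0.00555, and 0.315 without DC 2) and -1.80 ± 0.24 in Si8 (3.12e-04). Gsdmc2 (-1.12 and -2.24) and Gsdmc3 (-1.06 and -2.10) were also lower, with edgeR adjusted p of 5.93e-04 to 0.00845. Gsdmd stood at 40.0 against 35.9 and 41.4 against 43.4 CPM in the colon, and at 72.9 against 38.5 and 50.3 against 25.9 CPM in Si8. Its difference was 0.20 in DC (edgeR adjusted p = 0.445) and 1.48 ± 0.15 in Si8 (9.47e-05). The gap of -1.28 ± 0.21 between the tissues passed (edgeR adjusted p = 0.0193), but not without DC 2 (0.151). In DC 3 of 4 members passed where 9.71% of 11134 genes did, in Si8 all 4 where 35.7% did, and for the gap 1 where 3.45% did. From the lowest to the highest of 4 groups by Muc2 count, Gsdmd went from 33.4 to 86.0 CPM in Si8 1 and from 19.3 to 51.7 CPM in Si8 2, and from 33.9 to 40.6 and 48.1 to 40.4 CPM in DC 1 and DC 2. Within goblet-like cells alone, where 9.75% of genes passed in DC, 29.6% in Si8 and 6.21% for the gap, Gsdmd kept this pattern, with 0.13 in DC (edgeR adjusted p = 0.674), 0.88 in Si8 (2.84e-07) and a gap of -0.75 (0.0114). Within absorptive-like cells it was -0.24 in DC (edgeR adjusted p = 0.829) and 0.05 in Si8 (0.982), where 1.26% and 2.9% of genes passed and 0.163% for the gap. Gsdmc4 was lower with high Muc2 within absorptive-like cells of Si8 (-1.15, edgeR adjusted p = 0.0178), and stood at -0.48 in those of DC (0.349). Within goblet-like cells its sign turned, to 0.60 in DC (edgeR adjusted p = 0.0371) and 1.15 in Si8 (0.0503).

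Across clusters, each gene was summed per cluster and library where at least 20 cells were present, which gave 20 sums per tissue from 2 libraries that share their depth, so correlations of log2(CPM + 10) are descriptions only. The paralog sum went with Muc3 (r = 0.912 in DC and 0.663 in Si8) and not with Mxd1 (0.107 and -0.220). Gsdmd went with Mxd1 (0.924 and 0.834) and with Muc2 (0.766 and 0.910), and less with Muc3 (-0.0665 and 0.389). Among the paralogs r was 0.972 to 0.985 in DC and 0.980 to 0.995 in Si8. With both tissues clustered together, the highest cluster sums of Gsdmd, 122, 95.5, 97.5 and 72.2 CPM, were in goblet-like cluster 8, which also held the most Muc2 (18288, 14603, 24080 and 22790 CPM) and Mxd1 (1192, 727, 1344 and 662 CPM). That cluster was shallow, at median depths of 3936, 3894.5, 5788 and 14425.5 UMIs, so most of its colonic cells took no part in the splits, and whether depth had a part in its Gsdmd level was not tested. Without it, Gsdmd in goblet-like cells differed between the tissues by -0.71 (edgeR adjusted p = 0.00156).

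**Figure D4:**
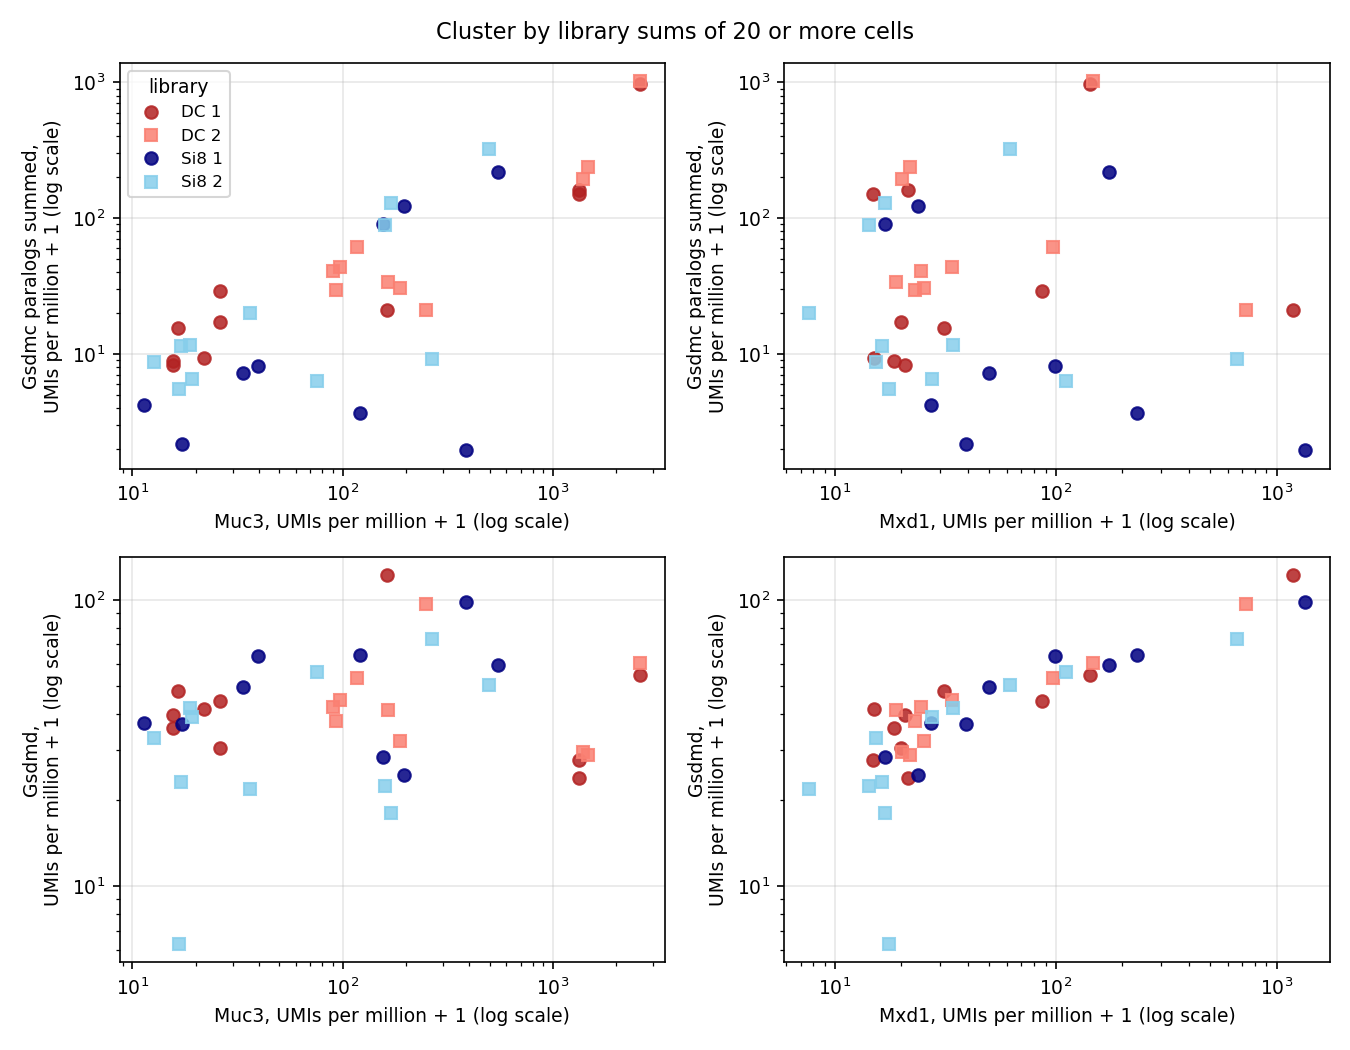
Paralog sum and Gsdmd (CPM plus 1) against Muc3 and Mxd1 (CPM plus 1) on log axes, 1 point per cluster and library with at least 20 cells. Paralogs rise along Muc3 (r = 0.912 in DC, 0.663 in Si8), and Gsdmd along Mxd1 (r = 0.924 in DC, 0.834 in Si8).

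When the colon was clustered without the small intestine, its absorptive-like cells fell into 3 clusters of 20 or more cells per library and a smaller one. The smaller one, of 11 and 8 cells in DC 1 and DC 2, had too few cells for its levels to be given. In the first Gsdmc4 stood at 508 and 538 CPM, in the next at 694 and 775, and in the third at 688 and 798 CPM in DC 1 and DC 2. Gsdmd stood at 36.0 and 45.5, 48.9 and 43.0, and 177 and 165 CPM in the same order, and Mxd1 at 56.8 and 69.0, 52.9 and 65.5, and 842 and 697 CPM. High Gsdmd and high Gsdmc4 thus met in the third cluster, 44 and 165 cells at median depths of 6275 and 8719 UMIs. In the small intestine clustered alone, small intestinal absorptive-like cells held Gsdmc4 at 98.9 and 180 CPM and Gsdmd at 65.4 and 54.7 CPM. An unnamed cluster of 57 and 166 cells held Gsdmc4 at 151 and 169 CPM, Gsdmd at 32.5 and 23.0 and Mxd1 at 31.9 and 19.1 CPM. Its leading genes were, in order, Gsdmc4, Apol10a, Dmbt1, Mgst1, Gsdmc2, Fgfbp1 and Gsdmc3.

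The genes whose pattern over those 20 sums was most like the paralog sum in DC, of 4034 ranked by r of log2(CPM + 10), were Hao2 (r = 0.990), a peroxisomal hydroxy acid oxidase, the amino acid transporter Slc6a14 (0.983), the aldehyde dehydrogenase Aldh2 (0.981), AI854703 (0.966) and the monocarboxylate transporter Slc5a8 (0.963). In Si8, of 3730, they were 2610528A11Rik (0.988), the chemokine Ccl25 (0.987), Akr1c19 (0.984), Fam213b (0.983) and Slc35g1 (0.982). For Gsdmd they were 2310079G19Rik (0.938), the kinase Camk2d (0.933), the interferon regulatory factor Irf7 (0.930), Lhfpl2 (0.929) and Sertad1 (0.928) in DC, with Mxd1 at 0.924 the next in rank. In Si8 they were Samd8 (0.977), the brush border cadherin Cdhr5 (0.973), Sipa1l3 (0.969), the ubiquitin ligase Trim31 (0.968) and Fam3b (0.967).

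The proteases and partners around Gsdmd differed by region in absorptive-like cells although Gsdmd itself did not pass there. Of 34 tested inflammasome and pyroptosis genes (47 listed) 6 were higher and 14 lower in DC, where 33.1% of all tested genes passed, with a median log2 difference of -0.39 against 0.03 over all tested genes. Casp1, which cuts Gsdmd and pro-IL-18, stood at 60.6, 58.8, 119 and 111 CPM (-1.18, edgeR adjusted p = 2.74e-04). Its adaptor Pycard (ASC) was also lower in DC, at 605, 812, 1088 and 1524 CPM (-1.12, 0.00372), as were the sensors Nlrp6, at 61.0, 54.0, 105 and 135 CPM (-1.31, 2.37e-04), and Nlrp9b, a viral RNA sensor of intestinal epithelium, at 1.46, 1.30, 10.1 and 6.93 CPM (-2.80, 5.45e-04). Casp8 (35.4, 31.7, 85.6 and 55.6 CPM, -1.29, edgeR adjusted p = 0.00160) and the necroptosis kinase Ripk3 (8.40, 7.39, 33.6 and 30.9 CPM, -2.28, 2.14e-05) were lower in DC too. Casp4 stood at 40.5, 27.8, 46.5 and 36.9 CPM and did not pass (-0.55, edgeR adjusted p = 0.0883). Other genes of the list went the other way. Il18, the cytokine that Gsdmd pores release, stood at 214, 214, 47.0 and 37.3 CPM, higher in DC by 2.13 (edgeR adjusted p = 1.55e-05). Ninj1, which ruptures the plasma membrane after pore formation, stood at 29.2, 30.1, 9.67 and 12.5 CPM (1.14, 0.00157), and the NLRP3 partner Nek7 at 34.3, 25.7, 4.60 and 3.60 CPM (2.68, edgeR adjusted p = 4.65e-05). Tlr4 had 15, 60, 3 and 3 UMIs (2.69, 0.00499).

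In goblet-like cells 7 of 36 tested genes of that list were higher and 17 lower in DC, where 42.5% of all tested genes passed, with a median of -0.75 against 0.05 over all tested genes. Casp1 stood at 33.1, 34.0, 71.0 and 60.5 CPM (-1.50, edgeR adjusted p = 2.21e-04) and Casp4 at 14.0, 14.1, 55.7 and 31.7 CPM (-2.16, 0.00103). Both of these inflammatory caspases were thus lower in colonic goblet-like cells. Casp8 was lower as well, with overlapping libraries (45.0, 31.3, 66.5 and 40.7 CPM, -1.02, 0.0193). Pycard stood at 405, 447, 305 and 411 CPM and did not pass (-0.28, edgeR adjusted p = 0.236), with a sign that turned to 0.25 under library totals alone. Nlrp6 was low in these cells, at 2.00, 4.06, 2.84 and 5.64 CPM (-0.97, 0.118). Il18 stood at 37.5, 41.5, 21.6 and 15.9 CPM (0.55, edgeR adjusted p = 0.0329) and Ninj1 at 29.2, 35.1, 12.9 and 15.6 CPM (0.65, 0.0169), higher in DC as in absorptive-like cells. Also lower in DC were Ripk3 (5.24, 5.31, 32.5 and 23.1 CPM, -2.92), the nucleic acid sensor Zbp1 (16.0, 15.2, 99.0 and 64.1 CPM, -2.91) and the guanylate-binding protein Gbp2 (3.62, 6.31, 35.2 and 7.10 CPM, -2.55), with edgeR adjusted p of 1.17e-04 to 0.0269. Gzma, a granzyme of lymphocytes, had 0, 0, 357 and 34 UMIs in goblet-like cells, beside immune markers that summed to 32.1, 67.2, 88.2 and 17.9 CPM. The part of such cells in these values was not tested. Over all kept cells 6 of 37 were higher and 12 lower, where 24.9% of all tested genes passed, with a median of -0.67.

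Part of the same list moved with Mxd1. Mxd1-positive cells had 9 of 35 tested genes higher and 0 lower in DC, where 9.9% of all tested genes passed (median log2 0.20 against -0.02 over all tested genes) and 16 higher and 2 lower in Si8, where 29.5% passed (0.51 against -0.05). Il18 was higher with Mxd1 in both, by 1.49 in DC (edgeR adjusted p = 1.31e-08) and 1.05 in Si8 (4.63e-04), and Gbp2 by 1.20 (0.0147) and 3.46 (edgeR adjusted p = 1.56e-10). Casp4 and Casp8 passed in Si8 (1.41, edgeR adjusted p = 4.05e-07, and 0.97, 9.18e-06) and not in DC (0.09, 0.859, and 0.22, 0.402). Casp1 passed in neither (0.27 in DC, edgeR adjusted p = 0.334, and 0.12 in Si8, 0.560). Nlrp6 was the gene of opposite signs, like Gsdmc4: higher with Mxd1 in DC by 1.25 (edgeR adjusted p = 7.02e-06) and lower in Si8 (-0.68, 0.00695). Pycard was lower with Mxd1 in Si8 (-0.81, edgeR adjusted p = 1.50e-04) and stood at -0.05 in DC (0.890). With Muc3, 5 genes were higher and 1 lower in DC and 8 higher and 1 lower in Si8, of 35 tested, where 20.8% and 13.8% of all tested genes passed, so the DC count was no larger a share than over all genes. They included Nlrp6 in both tissues (3.62 in DC, edgeR adjusted p = 1.45e-06, and 1.65 in Si8, 1.35e-04), and Il18 (1.40, 4.57e-06) and Il1b (-2.47, edgeR adjusted p = 4.64e-04) in DC. High-Muc2 cells had 4 higher and 2 lower of 33 in DC, and 13 higher and 2 lower in Si8, where 9.71% and 35.7% of all tested genes passed.

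Type 2 cytokine response genes, the setting in which the Gsdmc paralogs are best known, were mixed by region. In absorptive-like cells 5 of 21 tested (35 listed) were higher and 9 lower in DC, where 33.1% of all tested genes passed, with a median of -0.08 against 0.03 over all tested genes. The sialyltransferase St3gal4 stood at 75.6, 79.1, 751 and 665 CPM (-3.43, edgeR adjusted p = 8.62e-07) and Fcgbp, a mucus protein that binds IgG Fc, at 2163, 1427, 8527 and 4591 CPM (-2.12, 0.00101). Fcgbp is also one of the 37 goblet markers, which summed to 55233, 42501, 134114 and 88067 CPM in absorptive-like cells. The part of goblet RNA in the Fcgbp difference was not tested. The cytokine signalling inhibitor Socs1 stood at 0.730, 0.731, 8.75 and 4.16 CPM (-3.17, edgeR adjusted p = 0.00179). Sprr2a3, a small proline-rich protein, was higher in DC like the paralogs, at 335, 301, 35.4 and 39.9 CPM (2.83, 1.52e-06). In goblet-like cells 4 of 22 were higher and 10 lower, where 42.5% passed. Mxd1-positive cells had 8 of 20 higher and 0 lower in DC, where 9.9% passed, and 11 higher and 1 lower in Si8, where 29.5% did. Sprr2a3 was higher with Mxd1 by 2.84 and 2.85 (edgeR adjusted p = 6.37e-13 and 1.58e-09).

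Membrane repair removes gasdermin pores through ESCRT and annexin proteins. In absorptive-like cells 3 of 22 tested (25 listed) were higher and 7 lower in DC, where 33.1% of all tested genes passed, with a median of -0.20. Anxa1 was at 110 CPM in DC 1 and 105 in DC 2, with 0 and 2 UMIs in Si8. Anxa4 (119, 118, 364 and 351 CPM, -1.83) and Anxa2 (453, 505, 814 and 840 CPM, -1.03, edgeR adjusted p = 0.00131) were lower in DC, and Syt7, a calcium sensor of membrane fusion, was higher (85.8, 59.9, 36.8 and 24.4 CPM, 1.05, 0.00807). With Mxd1, 4 of 23 were higher in DC and 13 in Si8 and 0 lower in either, where 9.9% and 29.5% of all tested genes passed. With high Muc2, 17 of 23 were higher in Si8 and 1 in DC, where 35.7% and 9.71% passed. Of the surface epithelium genes, a list that holds Muc3 and Mxd1 themselves, 26 of 41 were higher and 2 lower with Mxd1 in DC, where 9.9% of all tested genes passed, and 30 higher and 2 lower in Si8, where 29.5% did. With Muc3, 15 of 42 were higher and 8 lower in DC, where 20.8% passed, and 19 higher and 2 lower in Si8, where 13.8% did.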

How the data were processed

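Single-cell RNA was counted from the 3' end in 4 libraries, 2 per tissue. The deposited values are counts, raw UMI counts of each gene in each barcode, made by the authors with Cell Ranger 2.1.1 on mm10, per the submitters' processing notes. The annotation release is not stated, and 28341 of 28694 identifiers (98.8%) were found in GENCODE M21. How reads shared by paralogs were assigned is not stated either. 3' counts need no scaling by gene length.

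A barcode passed with 500 or more genes and no more than 20% mitochondrial UMIs (10522 did). Scrublet's own threshold called 20 doublets and was replaced by the highest scores up to 0.8% per 1000 cells, which removed 279 and left 10243 cells. Leiden clustering (scanpy 1.11.5, leidenalg 0.10.2, igraph 0.11.9, resolution 1.0, 2000 variable genes, 30 components, 5 neighbours per library) used none of the listed genes. Clusters were named from markers, with at least 3 among their top 50 genes, and are called "-like", since nothing but RNA names them. The absorptive-like cluster held 11 colonic and 8 small intestinal absorptive markers among its top 50 genes, and both names were joined.

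UMIs were summed per class and library and tested with edgeR 4.0.16 (quasi-likelihood, TMM, filterByExpr at minimum count 10, adjusted by Benjamini-Hochberg over all tested genes, threshold 0.05) in R 4.3.3. Splits by Muc3, Mxd1 or Muc2 used cells thinned to 5000 UMIs, with library as a block. Levels are CPM of a library's own total, while fold changes carry TMM factors (1.22, 1.18, 0.843 and 0.826 for goblet-like cells). Exact tests used scipy 1.17.1. On simulated counts with 200 genes changed by a log2 fold of 2, the tissue test on 12995 genes and the Muc3 split on 10882 genes recovered 100% of them, with 3.85% and 6.98% of calls false. These counts had the same fixed spread for every gene, no library effect, and changed genes drawn only above a CPM cut. The recovery is therefore a check of the code and not the power in these data. Alternatives used DESeq2 1.42.0, other scalings, filters, thinning to 2000 UMIs and left-out libraries. The members and gene lists were chosen with earlier results of these data known. The genes named are the members, the other gasdermins, Muc3, Muc2, Mxd1, 7 inflammasome genes, up to 4 genes of each list with the largest difference past the threshold, and the 5 most alike.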

Additional observations from a re-analysis of the deposited data

Results flagged for a closer look

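Under the same split, the effect on 4 members differed between the tissues by a test of the difference itself (edgeR, adjusted over all tested genes, 2 libraries per tissue). The Muc3 split gave a larger difference in DC than in Si8 for Gsdmc2 (gap of 2.13 on the log2 scale, edgeR adjusted p = 0.0139), Gsdmc3 (2.08, 0.0433) and Gsdmc4 (2.12, 7.56e-04). The 3 genes were higher with Muc3 in all 4 libraries. The Mxd1 split gave gaps of 2.09 for Gsdmc2 (edgeR adjusted p = 1.25e-04) and 2.14 for Gsdmc4 (2.44e-06), with both genes higher with Mxd1 in the 2 DC libraries and lower in the 2 Si8 libraries. The Muc2 split gave a gap of -1.28 for Gsdmd (edgeR adjusted p = 0.0193), which was higher with Muc2 in both Si8 libraries and in 1 of the 2 DC libraries. The share of absorptive-like cells differed between the sides of these splits, and its part in the gaps over all cells was not tested. Within absorptive-like cells alone the gap of Gsdmc4 was 1.01 for Muc3 and 1.68 for Mxd1, both past the threshold, and that of Gsdmd for Muc2 was -0.29 and did not pass. The Muc3 split of this class was at each library's median, which lay at unlike Muc3 levels in the tissues. Within goblet-like cells alone the gap of Gsdmc4 was 0.28 for Muc3 (edgeR adjusted p = 0.880) and -0.12 for Mxd1 (0.957), neither past the threshold, while that of Gsdmd for Muc2 passed (-0.75, edgeR adjusted p = 0.0114).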

How the results depend on the processing

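Log2 values are DC minus Si8, positive minus negative cells, or the gap between the tissues. Of the values recomputed, 935 stayed the same, 104 kept the direction but no longer passed, 37 came to pass, 34 changed sign and 69 moved without a test. For a tested gene, the same means that direction and side of the threshold were kept. For counts of genes called, shares and lists of like genes, which have neither, it means a small change. The cause of each change was not tested, except that fewer cells or UMIs leave fewer genes testable. Depth limits the rarer members: Gsdmc could not be tested, and in goblet-like cells the paralogs stand at a few percent of their absorptive-like level.

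Genes past the threshold numbered 3253 over all kept cells (5171 with library totals alone, 1690 with cells thinned to 2000 UMIs), 5054 in goblet-like (7710 and 2268) and 3492 in absorptive-like cells (1006 when thinned). With library totals the share of calls higher in DC was 80.6% in place of 51.9% over all kept cells, 84.2% in place of 48.6% in goblet-like and 68.6% in place of 50.5% in absorptive-like cells, and the median over all genes moved from 0.04 to 0.45, 0.05 to 0.58 and 0.03 to 0.25. Library totals put Gsdmd at -0.26 in goblet-like and 0.10 in absorptive-like cells, and Pycard at 0.25 in goblet-like cells. With the paralogs as 1 gene Gsdmc4 over all kept cells became 1.42. Mxd1 in absorptive-like cells (0.093) was -0.028 when thinned and -0.33 with tissues clustered separately.

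Thinned to 2000 UMIs, the genes called fell from 1545 to 741 for Muc3 in Si8, 3235 to 1865 for Mxd1 in Si8, 362 to 73 for the Mxd1 gap, 1081 to 664 for Muc2 in DC, 3978 to 2403 for Muc2 in Si8 and 384 to 63 for the Muc2 gap. For Mxd1, Gsdmc4 in Si8 was -0.74 and the Gsdmd gap 0.088, and the Gsdmd gap for Muc2 was -1.22 (edgeR adjusted p = 0.0889).

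In goblet-like cells alone the genes called were 11 (from 2323) for Muc3 in DC, 175 (from 1086), 2138 (from 3235) and 105 (from 362) for Mxd1 in DC, in Si8 and for the gap, and 607 (from 384) for the Muc2 gap. For Muc3, Gsdmc4 was 0.55 in DC, 0.27 in Si8 and 0.28 for the gap, Gsdmc2 -1.94, Gsdmc3 -0.68 and Gsdmd 0.80 in Si8. For Mxd1, Gsdmc4 was 0.39 in DC, 0.50 in Si8 and -0.12 for the gap, Gsdmd 0.33 and Ninj1 0.12 in DC, and Casp1 -0.084 and Nlrp6 0.062 in Si8. For Muc2, Gsdmc2 was 0.32 and Gsdmc4 0.60 in DC (edgeR adjusted p = 0.0371, past the threshold in the other direction), Gsdmc3 0.37 and Gsdmc4 1.15 in Si8, and the gaps of Gsdmc3 and Gsdmc4 were -0.64 and -0.54.

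In absorptive-like cells alone the genes called were 816, 265 and 64 (from 2323, 1545 and 259) for Muc3 in DC, in Si8 and for the gap, 330 and 55 for Mxd1 in Si8 and for the gap, and 85, 195 and 11 (from 1081, 3978 and 384) for Muc2. For Muc3, Gsdmd was 0.97 in DC, 0.91 in Si8 and 0.053 for the gap, and Gsdmc4 -0.27 in Si8. For Mxd1, Gsdmc3 was -0.24, Gsdmc4 0.34 and Casp4 -0.46 in DC, Gsdmc3 0.053 and Ninj1 1.02 in Si8, and the Gsdmc3 gap -0.29. For Muc2, Gsdmc4 was -0.48 and Gsdmd -0.24 in DC, Gsdmd 0.05 in Si8 and its gap -0.29.

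Shares of cells with a UMI follow depth. At 2000 UMIs and without thinning, Gsdmc4 was in 62.8% and 91.7% of absorptive-like cells of DC and 21.4% and 66.4% of Si8, and in 3.02% and 14.7% of goblet-like cells of DC and 0.526% and 4.17% of Si8. Gsdmd was in 10.4% and 50.3% of absorptive-like cells of DC and 12.6% and 65.6% of Si8, and in 8.59% and 36.9% of goblet-like cells of DC and 11.3% and 52.5% of Si8. Unthinned shares of Gsdmd thus had the tissues further apart. The Gsdmc4 part of the paralog UMIs in absorptive-like cells was 64.6% in DC and 63.4% in Si8 at 2000 UMIs, and 60.8% in Si8 with tissues clustered separately. With a pseudocount of 1 CPM, of the first 5 like genes 4 were shared for both targets in DC, and 2 for the paralogs and 3 for Gsdmd in Si8.

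Leaving out 1 library at a time gave 1411 to 4060 genes called over all kept cells, with Gsdmc4 at 1.12 to 2.25 and Gsdmd at -0.75 to -0.11 (edgeR adjusted p = 0.0103 without Si8 2). Goblet-like Gsdmc3 ranged from -0.54 to 1.86 (lowest without DC 2). Absorptive-like cells gave 1648 to 3959 genes and Mxd1 at -0.54 (without Si8 2) to 1.01. For Muc3, DC gave 754 to 4224 genes, Gsdmd in Si8 -0.14 to 0.65, and the gap 208 to 1479 genes with Gsdmd at -0.71 (edgeR adjusted p = 0.00325, without Si8 2) to 0.088 (without Si8 1). For Mxd1, DC gave 260 to 2331 genes, Gsdmd 0.75 to 0.86, Casp1 -0.17 to 0.48 and Pycard -0.12 to 0.0075, Gsdmc3 in Si8 -0.05 to 0.034, and the gap 59 to 1509 genes. For Muc2, DC gave 369 to 2931 genes and Gsdmc4 -1.30 to -0.65, and the gap 111 to 1491 genes and Gsdmd -1.39 to -1.14.

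The labels give both tissues replicate numbers 1 and 2 but pair nothing. Deviations of same-numbered libraries correlated at r = 0.199 over 11881 genes in goblet-like cells. With a replicate block 3923, 6072 and 4280 genes were called over all kept, goblet-like and absorptive-like cells. Gsdmc4 was 1.69, 2.26 and 1.77, and Gsdmd -0.42, -0.78 and -0.12. Past the threshold under the replicate block alone were Gsdmc2 (0.98) and Gsdmc3 (1.17) over all kept cells, Gsdmc2 (1.60) and Nlrp6 (-1.01) in goblet-like and Casp4 (-0.55) in absorptive-like cells.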

Other observations

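The 16 enteroendocrine-like cells of DC 2 held 42 Gsdmc4 UMIs (175 CPM) and 8 of that library's 10 Gsdma UMIs (33.3 CPM). They are too few for a comparison.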
